A study of Mus musculus with 2 samples.

Results

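miR-22 is a microRNA (miRNA) made from a single mouse hairpin, Mir22, and was followed here through every read that the deposited table lists under its name. Reads of the miRNA class whose name is mmu-mir-22, with or without an arm suffix, were taken, which made it 1 of 358 miRNA names once arm and copy suffixes were removed. The samples were fetal livers of B6/129 mice at embryonic stage E18.5. One library came from Ago2ADH animals, whose Argonaute 2 is catalytically inactive, and the other from wild type animals of the same strain and stage. Each genotype had 1 library of gel-selected small RNA of 19 to 30 nt. No value below has a replicate check, no p-value was computed, and nothing in the labels says how many animals or litters went into a library.

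A miRNA is cut from a hairpin by Drosha in the nucleus and by Dicer in the cytoplasm, which leaves a short duplex. One strand is loaded into an Argonaute protein as the guide and the other is usually discarded. The guide finds mRNAs mainly through its seed, bases 2 to 8 from the 5′ end. Argonaute 2 is the mammalian Argonaute that can cut RNA paired along its guide, and miR-451, a red cell miRNA, needs that cut for its own maturation. miR-22 is conserved among vertebrates, is abundant in blood-forming cells, heart and liver, and is known for repressing mRNAs such as those of Tet2, Hdac4 and Ppara. The fetal liver at this stage holds hepatocytes together with developing red cells, and both are known to carry miR-22.

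The 2 mature strands of miR-22 are shown first because every read form described below is a version of them. These are the RefSeq sequences (GRCm38.p6, plus strand), with the seed in capitals. In these livers the 3p strand was the abundant one.
mmu-miR-22-3p: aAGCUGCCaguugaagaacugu
mmu-miR-22-5p: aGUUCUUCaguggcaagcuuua
The hairpin lies at chr11:75463716-75463810 and is 95 nt long, and its capitals mark the 5p arm and then the 3p arm.
Mir22 hairpin: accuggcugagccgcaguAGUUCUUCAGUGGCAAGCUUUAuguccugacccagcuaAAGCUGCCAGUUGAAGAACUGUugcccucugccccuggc
The mature 3p strand is chr11:75463772-75463793 and the mature 5p strand chr11:75463734-75463755. The hairpin lies inside exon 2 of the long noncoding RNA Mir22hg (chr11:75463693-75463857 in the transcript Mir22hg-202) and also inside an exon of a noncoding transcript of Tlcd2, so the miRNA is exonic and not intronic.

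The Ago2ADH library held 7046197 reads, of which 2811227 were miRNA reads, and the wild type library held 7599870 reads, of which 2808232 were miRNA reads. The mRNA of Ago2 itself (Eif2c2 in the table) left 318 fragments in Ago2ADH and 229 in wild type, a number that does not bear on a change of 1 codon. The codon of the first catalytic aspartate was covered by 2 reads in Ago2ADH, both encoding D598A (residues counted from the start methionine of the 860-residue protein), and by 0 reads in wild type. miR-451-5p, the miRNA that depends on slicing, had 4368 reads in Ago2ADH and 326796 in wild type, a log2 ratio of -6.23, and ranked 85 among arms in Ago2ADH and 2 in wild type. Because that arm was so abundant, each scale set by a total moves every other miRNA a little.

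miR-22 accounted for 54 distinct sequences with 88762 reads in Ago2ADH and 87216 in wild type. Of these sequences, 53 matched the hairpin exactly, 37 of them on the 3p arm and 16 on the 5p arm. The remaining sequence, with 1 read in Ago2ADH and 0 in wild type, was antisense to the 5p arm and was set aside. Sequences with 1 genome match numbered 38 and held 88605 reads in Ago2ADH and 87037 in wild type. The 15 with more matches, none longer than 17 nt, held 156 reads in Ago2ADH and 179 in wild type, so shared sequence elsewhere in the genome touched few reads. No exact hairpin read was filed under another class, with 0 such reads in each library.

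miR-22-3p was among the most abundant miRNAs of the fetal liver in both genotypes, and its level in Ago2ADH lay close to that in wild type. It had 88044 reads in Ago2ADH and 86446 in wild type. Scaled to the miRNA reads of each library this was 31319 reads per 1000000 (RPM) in Ago2ADH and 30783 RPM in wild type. The share of all miRNA reads was 3.13% (95% Clopper-Pearson interval 3.11 to 3.15) in Ago2ADH and 3.08% (3.06 to 3.10) in wild type. As a log2 ratio, Ago2ADH over wild type, this was 0.02, with an exact 95% interval of 0.01 to 0.04. PCR amplified the reads, which bear no molecular tag, so this interval and all others but those of gene-list medians cover counting error only.

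In rank, miR-22-3p was arm number 3 in Ago2ADH and number 4 in wild type. The step between these ranks goes with miR-451-5p, which stood above it in wild type. miR-122-5p, the main hepatocyte miRNA, was first in both libraries with 1194083 reads in Ago2ADH and 1083987 in wild type. miR-16-5p was next above miR-22-3p in both, with 91514 reads in Ago2ADH and 101227 in wild type. miR-21-5p was next below it, with 75657 reads in Ago2ADH and 43320 in wild type. In Ago2ADH the 32553 RPM of miR-16-5p and the 26912 RPM of miR-21-5p lie outside the counting interval of miR-22-3p; the spread between animals is not known.

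An arm was called higher or lower when it had 100 or more reads over both libraries, a ratio of 2 or more or of 0.5 or less, and an interval that excluded 1. Among the 353 arms with enough reads, 23 met this rule, 6.52% of them, and neither arm of miR-22 did. The rule called 20 arms higher in Ago2ADH (5.67%) and 3 lower (0.85%). The median log2 ratio of the 353 arms was 0.15, with quartiles of -0.12 and 0.42. The 3p arm lay 0.13 below that median (a difference of -0.13), and 131 arms had a lower ratio than miR-22-3p. Only 17 arms, itself included, had a log2 ratio as near to 0 on this scale.

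The sign of the 3p value depends on the scale. Scaled to all reads of the library, the log2 ratio was 0.14. Scaled by the median of ratios over arms it was -0.13, by TMM -0.12, and to the miRNA total without miR-451 it was -0.15. The median of all arms moves with it, to 0.26 with all reads and to -0.03 without miR-451. A scaling shifts all arms alike, so the distance of miR-22-3p below that median is the same under each of these.

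**Figure D1:**
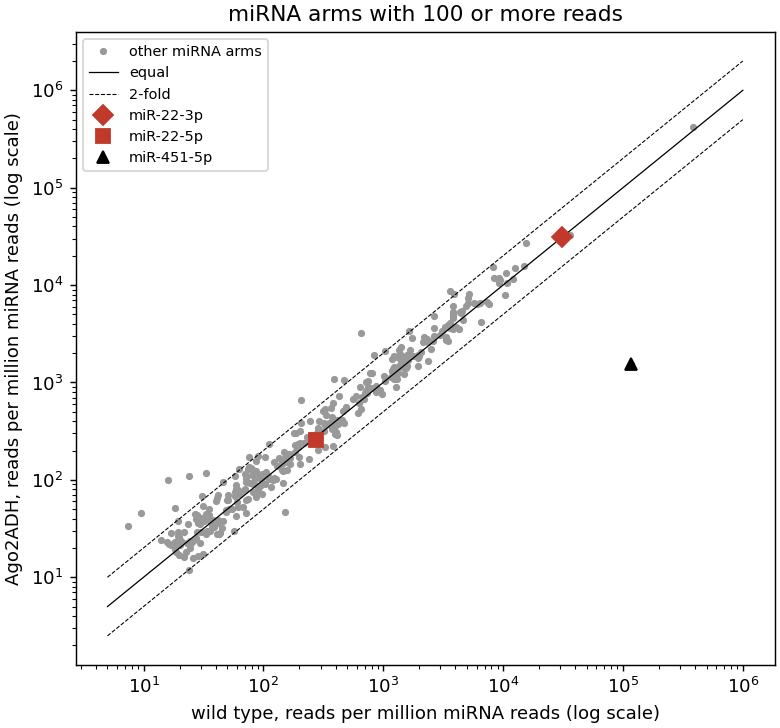
Each point is 1 miRNA arm with 100 or more reads, with RPM (scaled to the miRNA reads) in Ago2ADH on the vertical axis and in wild type on the horizontal axis, both on log scales; the solid line marks equal levels and the dashed lines a 2-fold difference. miR-22-3p (31319 RPM in Ago2ADH, 30783 RPM in wild type) and miR-22-5p (255 RPM in Ago2ADH, 274 RPM in wild type) lie near the line of equal levels, and miR-451-5p lies far below it.

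The arms nearest to miR-22-3p by their log2 RPM in both libraries were, after miR-16-5p at a distance of 0.234, miR-21-5p at 1.02, miR-194-5p at 1.44, miR-541-5p at 1.67 and miR-103-3p at 1.97. A likeness over 2 libraries says only that the levels are near each other. The log2 ratio was -0.15 for miR-16-5p, an arm found in many cell types. It was 0.80 for miR-21-5p, also widely expressed. miR-194-5p, a miRNA of liver and gut epithelium, was at 0.08, miR-541-5p, from the imprinted Dlk1-Dio3 region, at 0.24, and miR-103-3p at -0.05. None of the 5 met the size rule, which 6.52% of the 353 arms met. Choosing arms by their level in both libraries favours ratios near that of miR-22-3p, so this count is partly set by the choice.

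The read forms of miR-22-3p were close to uniform in both libraries. The main form covers hairpin positions 57 to 78 and is 22 nt long. The other forms that matter differ from it at the 3′ end by 1 or 2 bases or start 1 base later. They are set out below as DNA, as the table gives them, with the seed in capitals where the seed is the point and the extra base in capitals in the 23-nt form.
3p 22-nt main read: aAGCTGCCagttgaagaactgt
3p 23-nt read: aagctgccagttgaagaactgtT
3p 21-nt read: aagctgccagttgaagaactg
3p 20-nt read: aagctgccagttgaagaact
3p read from position 58: aGCTGCCAgttgaagaactgt
The last T of the 23-nt form is also the next base of the hairpin, so a uridine added after cutting cannot be told apart from a cut 1 base farther on.

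The main form had 85403 reads in Ago2ADH and 83461 in wild type, which is 97.0% of the arm in Ago2ADH and 96.5% in wild type. Its log2 ratio was 0.03 (0.02 to 0.05). The 23-nt form had 1169 reads in Ago2ADH and 1306 in wild type, for a log2 ratio of -0.16 (-0.28 to -0.05). Relative to the median of all arms, the main form lay at -0.12 (-0.13 to -0.11) and the 23-nt form at -0.31 (-0.43 to -0.20). Between these scales the sign of the main form changed and that of the 23-nt form did not. Scaling to all reads, which raises every log2 ratio, was not applied to these forms.

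The 21-nt form had 603 reads in Ago2ADH and 623 in wild type, for a log2 ratio of -0.05 (-0.21 to 0.12). The 20-nt form had 216 reads in Ago2ADH and 319 in wild type, for a log2 ratio of -0.56 (-0.82 to -0.31). Of these 4 forms from the main start, the 20-nt form was the farthest from 0, yet it also missed the 2-fold limit. Taken over all lengths, reads from the main start that ended before position 78 numbered 904 in Ago2ADH and 1049 in wild type (-0.22, -0.35 to -0.09), and those that ended after it 1172 in Ago2ADH and 1308 in wild type (-0.16, -0.27 to -0.05).

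The 5′ end, which sets the seed, was the most fixed feature. Position 57 was the start of 99.36% of 3p reads in Ago2ADH (99.30 to 99.41) and of 99.27% in wild type (99.21 to 99.33), a difference of 0.0847 percentage points (0.00738 to 0.162). Starts at position 58 made up 0.326% in Ago2ADH (287 reads) and 0.368% in wild type (318 reads). That start moves the seed by 1 base, to the one that RefSeq gives for mmu-miR-3966 alone. Starts 1 base earlier, at position 56, had 23 reads in Ago2ADH and 21 in wild type.

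Among reads from the main start, position 78 was the end of 97.6% in Ago2ADH (97.5 to 97.7) and of 97.3% in wild type (97.1 to 97.4), a difference of 0.373 points (0.225 to 0.522). Position 79 took 1.34% in Ago2ADH and 1.52% in wild type, position 77 took 0.689% in Ago2ADH and 0.726% in wild type, and position 76 took 0.247% in Ago2ADH and 0.372% in wild type. Each of these 3 ends was a little less used in Ago2ADH, and for position 77 the interval of the difference contained 0. Pieces shorter than 19 nt, below the gel fraction, made up 0.282% of 3p reads in Ago2ADH (248 reads) and 0.322% in wild type (278 reads). The mean length of 3p reads was 21.98 nt in both libraries.

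**Figure D2:**
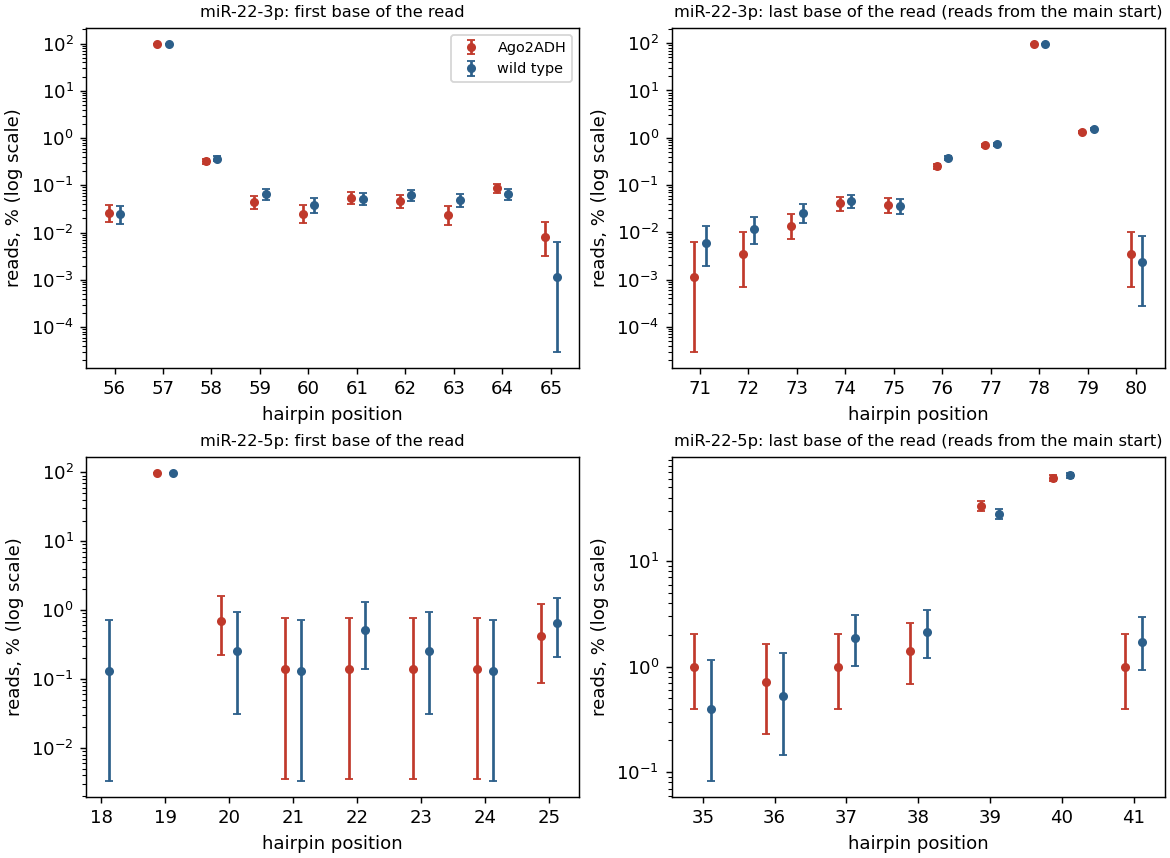
Share of reads (percent, log scale) by the hairpin position of their first base (left) and, for reads from the main start, of their last base (right), for miR-22-3p (top) and miR-22-5p (bottom) in Ago2ADH (red) and wild type (blue); bars are 95% Clopper-Pearson intervals and positions with 0 reads have no point. Position 57 takes 99.36% of 3p starts in Ago2ADH and 99.27% in wild type, while 5p ends are spread over positions 39 and 40.

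This uniformity was set against the 194 arms with 1000 or more reads. The most abundant form of an arm took a median of 63.3% of its reads in Ago2ADH and 62.1% in wild type, where miR-22-3p had 97.0% in Ago2ADH and 96.5% in wild type, and only 2 arms had a higher share in each library. The main 5′ end took a median of 96.7% in Ago2ADH and 96.2% in wild type, and 6 arms exceeded miR-22-3p in each. The main 3′ end took a median of 71.8% in Ago2ADH and 69.9% in wild type, and 4 arms exceeded miR-22-3p in Ago2ADH and 3 in wild type. The share of the most abundant form was 0.453 percentage points higher in Ago2ADH for miR-22-3p, and over the 194 arms this difference had a median of 1.08 points and quartiles of -0.732 and 2.42. It ran from -31.3 points for miR-451-3p to 19.3 for miR-486-5p.

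**Figure D3:**
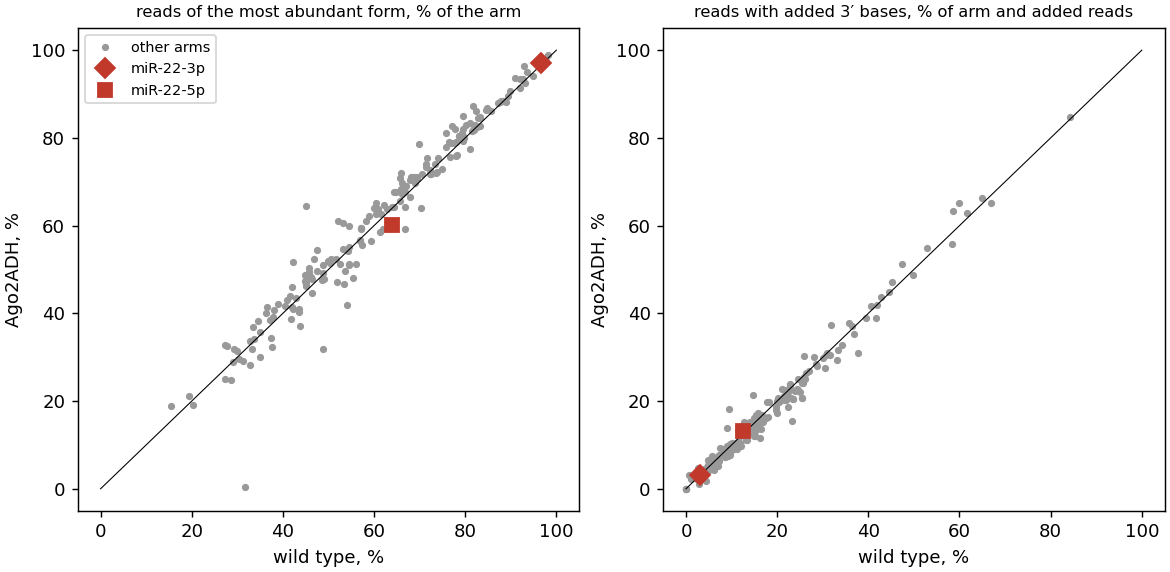
Each point is 1 of the 194 miRNA arms with 1000 or more reads, with the share in Ago2ADH on the vertical axis and in wild type on the horizontal axis, for reads of the most abundant form (left) and for reads with added 3′ bases (right). miR-22-3p lies at the upper end for the most abundant form (97.0% in Ago2ADH, 96.5% in wild type) and near the lower end for added bases (3.08% in Ago2ADH, 3.07% in wild type), and most arms lie near the line of equal shares, with miR-451-3p farthest from it for the most abundant form (0.380% in Ago2ADH, 31.7% in wild type).

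Bases that the hairpin does not encode can be added to the 3′ end of a miRNA by nucleotidyl transferases. Reads were counted as extended when they began at the main start, followed the hairpin for 18 or more bases, carried 1 to 3 further bases and had no genome match. The chief ones are shown with the added bases in capitals.
3p with 1 added A: aagctgccagttgaagaactgtA
3p with 2 added A: aagctgccagttgaagaactgtAA
5p with 1 added A: agttcttcagtggcaagctttaA
Extended 3p reads numbered 2795 in Ago2ADH and 2734 in wild type. Their share of arm and extended reads was 3.08% (2.97 to 3.19) in Ago2ADH and 3.07% (2.95 to 3.18) in wild type, a difference of 0.0112 points (-0.148 to 0.171). By this count, which also takes in main reads with a changed base near the 3′ end, miR-22-3p was one of the less extended arms. A higher share was found in 174 of the 194 arms in Ago2ADH and 176 in wild type. The medians were 13.8% in Ago2ADH and 13.9% in wild type. The arms with a lower share include 5 listed at 0, whose first 18 bases are those of a sister arm to which their extended reads were assigned.

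Of the additions that could be counted at the main 3′ end, adenosine was the most frequent. A single added A had 821 reads in Ago2ADH and 798 in wild type, or 0.904% (0.843 to 0.967) in Ago2ADH and 0.895% (0.834 to 0.959) in wild type. A single added T at that end is encoded by the hairpin and so could not be counted. AA had 260 reads in Ago2ADH and 218 in wild type, and AT had 172 in Ago2ADH and 148 in wild type. All additions of 2 bases at the main end that began with an A came to 444 reads in Ago2ADH and 372 in wild type, for a log2 ratio of 0.25 (0.05 to 0.46), or 0.10 (-0.10 to 0.31) relative to the median of all arms.

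Over all 3′ ends, additions that began with A numbered 1587 in Ago2ADH and 1452 in wild type (log2 ratio 0.13, 0.02 to 0.23). Additions that began with T numbered 333 in Ago2ADH and 419 in wild type (-0.33, -0.54 to -0.12). Relative to the median of all arms, additions beginning with A lay at -0.02 (-0.13 to 0.08) and those beginning with T at -0.48 (-0.70 to -0.27). As a share of arm and extended reads, additions beginning with A differed by 0.119 points (-0.000171 to 0.238), an interval that contains 0, and those beginning with T by -0.103 points (-0.163 to -0.0437). The lower value of additions beginning with T thus held on each of these scales, and the higher one of additions beginning with A did not. Of those beginning with T, 162 reads in Ago2ADH and 209 in wild type equal the main read with base 21 changed from G to T. In 31 other arms pooled, that change also had a lower share of the main read in Ago2ADH (0.284%) than in wild type (0.426%). The lower value is thus not a measure of added uridine alone. An addition before the main end has the same letters as a longer read with a changed base near its end. There were 1274 such reads in Ago2ADH and 1269 in wild type. Reads with the letters of a main read changed at base 22 numbered 667 in Ago2ADH and 614 in wild type. At base 21 there were 307 in Ago2ADH and 346 in wild type, and at base 20 242 in Ago2ADH and 234 in wild type. These make up most of the additions before the main end, and which kind each read is cannot be told.

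**Figure D4:**
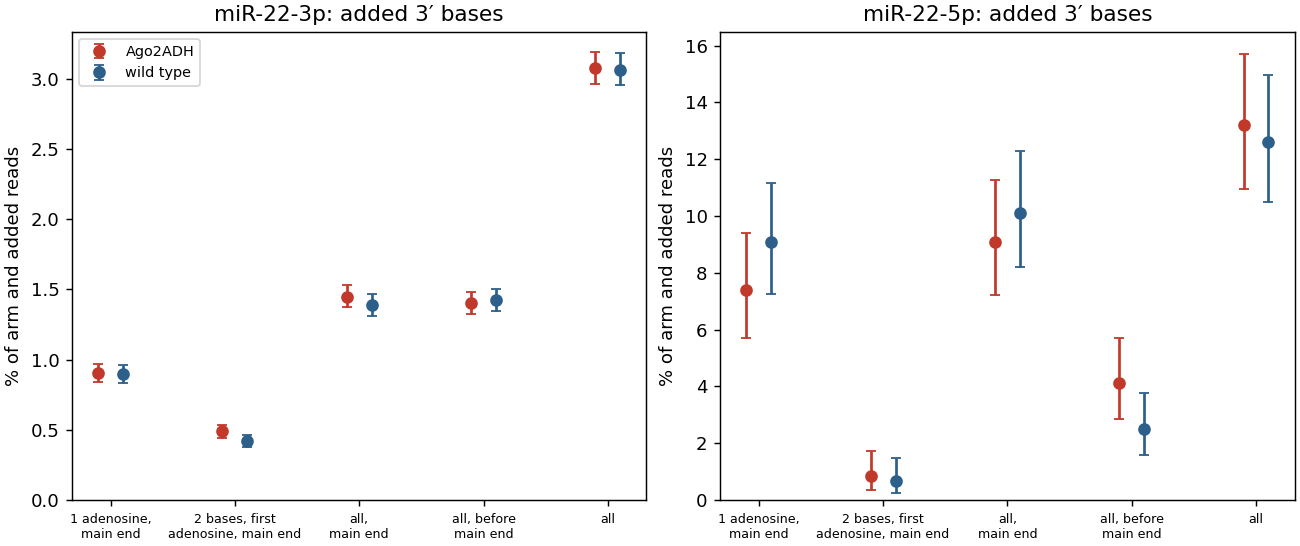
Share of reads with 3′ bases that the hairpin does not encode (percent of arm and extended reads) for miR-22-3p (left) and miR-22-5p (right), by kind of addition, in Ago2ADH (red) and wild type (blue); bars are 95% Clopper-Pearson intervals and the axes start at 0. All additions together took 3.08% of 3p reads in Ago2ADH and 3.07% in wild type, and 13.2% of 5p reads in Ago2ADH and 12.6% in wild type.

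Reads that matched the main 3p read except at 1 base and had no genome match were also counted. Those changed at base 20, 21 or 22 are among the extended reads above, so the sets overlap. All 66 possible single substitutions were present. Positions are counted from 1 at the 5′ end of the read, and each change is written as the base of miR-22, the position and the base of the read. Reads with 1 substitution numbered 6795 in Ago2ADH, 7.96% of the main read, and 8405 in wild type, 10.1%. Position 1 differed most: its changes had 175 reads in Ago2ADH (0.205% of the main read) and 634 in wild type (0.760%), a log2 ratio of shares of -1.89 (-2.14 to -1.65).

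Most of the gap at position 1 was a single change, A1C, shown here with the changed base in capitals.
3p with A1C: Cagctgccagttgaagaactgt
A1C had 16 reads in Ago2ADH, 0.0187% of the main read, and 336 in wild type, 0.403%, a log2 ratio of shares of -4.43 (-5.25 to -3.70). A1T had 45 reads in Ago2ADH and 141 in wild type (-1.68, -2.20 to -1.19), and A1G had 114 in Ago2ADH and 157 in wild type (-0.49, -0.86 to -0.14). At positions 2 to 22 together there were 6620 reads in Ago2ADH and 7771 in wild type, or 7.75% of the main read in Ago2ADH and 9.31% in wild type. Position 6 had 538 reads in Ago2ADH and 758 in wild type, and position 3 had 395 in Ago2ADH and 564 in wild type.

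The same first-base change was present in other miRNAs. Of 35 other arms whose main read begins with A, 34 had a higher A1C share in wild type than in Ago2ADH. Pooled over those arms the share was 0.0226% in Ago2ADH and 0.350% in wild type, and arm by arm it ran from 0 to 0.234% in Ago2ADH and from 0.110% to 0.589% in wild type. The 0.403% of miR-22-3p in wild type lies inside that range. Changes at position 1 over all 130 arms with enough reads, miR-22 apart, came to 0.257% in Ago2ADH and 1.09% in wild type. At 20 of the 22 positions the summed share for miR-22-3p was higher in wild type. The difference at the first base was thus shared by other miRNAs, and its origin was not tested. Adding these substituted reads to the arm gave miR-22-3p a log2 ratio of -0.00172 in place of 0.02.

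**Figure D5:**
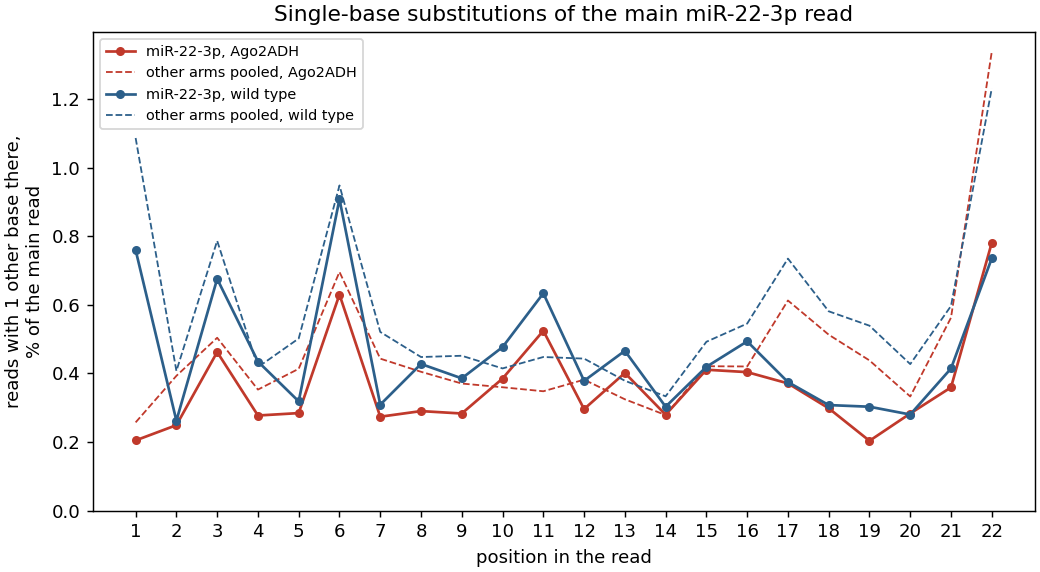
Reads that differ from the main 22-nt read at 1 base, as a percent of the main read, by position in the read, for miR-22-3p (solid, points) and for the other arms pooled (dashed) in Ago2ADH (red) and wild type (blue). At position 1 miR-22-3p has 0.205% in Ago2ADH and 0.760% in wild type, and the pooled arms show 0.257% in Ago2ADH and 1.09% in wild type.

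The 5p strand, the partner that is mostly discarded, was scarce. It had 717 reads in Ago2ADH and 770 in wild type, or 255 RPM in Ago2ADH and 274 RPM in wild type. The log2 ratio was -0.10 (-0.25 to 0.04), with an interval that contains 0, and 90 of the 353 arms had a lower one. The interval excluded 0 under other scalings, with -0.26 (-0.40 to -0.11) by median of ratios and -0.25 (-0.39 to -0.10) by TMM, so its call beyond counting error depends on the scale. By rank it was arm 181 in Ago2ADH and arm 174 in wild type. The nearest arms in level were miR-376a-5p (789 reads in Ago2ADH and 754 in wild type), miR-329-5p (679 in Ago2ADH and 684 in wild type) and miR-9-5p (738 in Ago2ADH and 660 in wild type). The log2 ratio of miR-22-5p was 0.00624 when scaled to all reads, and below 0 under the 9 other settings tried.

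The balance between the strands did not differ beyond counting error. The 5p share of both arms was 0.808% (0.750 to 0.869) in Ago2ADH and 0.883% (0.822 to 0.947) in wild type, a difference of -0.0751 points (-0.161 to 0.0105). That is 122.8 3p reads for each 5p read in Ago2ADH and 112.3 in wild type. The log2 odds ratio of the minor arm was -0.13 (-0.28 to 0.02). Of 214 hairpin names with reads on both arms, 84 had an interval that excluded 0, 39.3% of them, of which 37 were higher and 47 lower in Ago2ADH. miR-22 was among the 130 whose interval contained 0, and its odds ratio lay close to the median of -0.17. Its minor strand was scarcer than most: only 70 names in Ago2ADH and 68 in wild type had a lower minor share, with medians of 2.01% in Ago2ADH and 2.30% in wild type.

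The 5p strand ended less uniformly than the 3p strand. Its main forms differ by 1 base at the 3′ end and are shown with the seed in capitals.
5p 22-nt read: aGTTCTTCagtggcaagcttta
5p 21-nt read: aGTTCTTCagtggcaagcttt
The 22-nt form had 432 reads in Ago2ADH and 493 in wild type, for a log2 ratio of -0.19 (-0.38 to -0.00280). The 21-nt form had 237 reads in Ago2ADH and 211 in wild type, for a log2 ratio of 0.17 (-0.11 to 0.44). Among 5p reads from the main start, the 21-nt end took 33.6% (30.1 to 37.2) in Ago2ADH and 27.98% (24.8 to 31.3) in wild type, a difference of 5.63 points (0.895 to 10.4). The 22-nt end took 61.3% (57.6 to 64.9) in Ago2ADH and 65.4% (61.9 to 68.8) in wild type, where the interval of the difference contained 0. The 21-nt end was thus more used in Ago2ADH, a difference that rests on the 237 and 211 reads just given. All ends before the main one together took 37.7% in Ago2ADH and 32.9% in wild type. That difference was 4.84 points (-0.0649 to 9.72), an interval that contained 0.

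Of the smaller 5p forms, those of 20, 19 and 23 nt reached 1% of the arm in a library. The 20-nt form had 10 reads in Ago2ADH and 16 in wild type, the 19-nt form 7 in Ago2ADH and 14 in wild type, and the 23-nt form 7 in Ago2ADH and 13 in wild type. None of these had an interval that excluded 0. Position 19 was the start of 98.3% of 5p reads in Ago2ADH and of 97.9% in wild type. Extended 5p reads numbered 109 in Ago2ADH and 111 in wild type, or 13.2% (10.96 to 15.7) in Ago2ADH and 12.6% (10.5 to 14.97) in wild type. A single added A at the main end had 61 reads in Ago2ADH (7.38%) and 80 in wild type (9.08%). A single T after the main end is encoded on the 5p side too and could not be counted. Among the additions that could be counted, adenosine was the most frequent at the main end of both strands, and the 5p strand was extended more often than the 3p strand in each library.

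The predicted fold of the hairpin places the strands against each other along most of their length. RNAfold gave a minimum free energy of -41.9 kcal per mol, with 19 of the 22 bases of each strand paired to the other. Base 10 of the 3p strand and base 16 of the 5p strand were unpaired inside the duplex, and each strand had a 2-base overhang at its 3′ end, the form that Drosha and Dicer leave. Argonaute 2 cuts opposite bases 10 and 11 of its guide, and base 10 of the 3p strand is one of the unpaired ones. For a guide from the scarcer 5p strand, such a cut of the 3p strand would leave pieces of 9 and 13 nt. Here the unpaired base 10 is counted in the longer piece. Both are shorter than the shortest read of the table, 15 nt, so the 0 reads that began at that place do not test such a cut. Products of that cut could therefore not be seen in these data. A cut of the 5p strand by a 3p guide, the abundant strand, was not worked out.

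Neither seed of miR-22 is shared. Among 1738 mature mouse sequences in the RefSeq table, AGCUGCC at bases 2 to 8 belongs to miR-22-3p alone, and the 5p seed to miR-22-5p alone. There was thus no family member whose reads could be set beside these.

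The host transcript left few reads. Outside the miR-22 names, exact matches to the exons of Mir22hg with 1 genome match came to 35 distinct sequences, with 33 reads in Ago2ADH and 42 in wild type (log2 ratio, scaled to all reads, -0.24 with an interval of -0.94 to 0.45). Exon 1 had 16 reads in each library. Exon 2, which holds the hairpin, had 2 reads in Ago2ADH and 3 in wild type, and exon 3 had 15 in Ago2ADH and 23 in wild type. Beside the 88044 reads of miR-22-3p in Ago2ADH and 86446 in wild type, the exon around the hairpin was nearly empty.

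One position of exon 3 held most reads of that exon and is shown for its fixed 5′ end and length, chr11:75465563-75465584.
host exon read: tgggagatgaagggcctccagg
This 22-nt sequence had 12 reads in Ago2ADH and 15 in wild type, and with a 21-nt form from the same start the position had 15 in Ago2ADH and 18 in wild type. Next to the 5p arm, 2 sequences ended at hairpin position 18, the last base before the arm.
flank read 23 nt: ccctcacctggctgagccgcagt
flank read 20 nt: tcacctggctgagccgcagt
They had 0 reads in Ago2ADH and 3 in wild type, within what a count of 0 allows (3 reads). Only 1 read, in wild type, began between the arms.

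Because miR-22 is carried by red cell precursors and by hepatocytes, fragments of marker mRNAs in the same libraries were counted, scaled to all reads. Fragments of erythroid mRNAs were fewer in Ago2ADH, with 10016 reads in Ago2ADH and 16025 in wild type, or 1421 RPM of all reads in Ago2ADH and 2109 RPM in wild type. Of 30 listed names, 25 had a read and 21 had 50 or more. Their median log2 ratio was -0.32, with an interval of -0.54 to -0.14. The limits of that interval are values of genes in the list, so it reflects the spread over genes and not counting error. The same holds for the medians of the other lists below. Of the erythroid genes, 9 lay below 0 beyond counting error and 1 lay above. None of the 15 with 100 or more reads met the size rule, which 0.901% of 3329 RefSeq names did. With reads of 20 to 24 nt the erythroid median was -0.53 and its interval contained 0 (-0.77 to 0.11). The median over all 5913 RefSeq names with 50 reads was -0.000495, with 7.17% of them below 0 and 7.88% above beyond counting error. These shares are not matched to the lists for read depth, and more reads give a narrower interval.

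The erythroid genes with most reads were both globins. Hba-a2, an alpha globin, had 5225 reads in Ago2ADH and 9129 in wild type (-0.70, -0.75 to -0.65). Hbb-b2, a beta globin, had 2106 reads in Ago2ADH and 3413 in wild type (-0.59, -0.67 to -0.51). Each has a near-identical or closely similar gene copy, so some of its reads may come from the copy. The exception above 0 was the transferrin receptor Tfrc, which brings iron into red cell precursors, with 229 reads in Ago2ADH and 178 in wild type (0.47, 0.18 to 0.76). Fewer red cell precursors and less such mRNA per cell cannot be told apart in bulk tissue. The part of this in the level of miR-22 was not tested.

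Hepatocyte mRNA fragments numbered 109595 in Ago2ADH and 115041 in wild type, or 15554 RPM of all reads in Ago2ADH and 15137 RPM in wild type, with all 31 listed genes measured. Their median log2 ratio was -0.06 (-0.12 to 0.00320). It was 0.02 when scaled to RefSeq reads and -0.21 (-0.28 to -0.13) with reads of 20 to 24 nt. Beyond counting error, 11 genes lay below 0 and 5 above, where 7.17% of all RefSeq names lay below and 7.88% above. None was past the size rule, which only 0.901% of 3329 RefSeq names met. Albumin (Alb) had 36365 reads in Ago2ADH and 40362 in wild type (-0.04, -0.06 to -0.02), and Trf, the iron carrier transferrin, 25315 in Ago2ADH and 21899 in wild type (0.32, 0.29 to 0.34). Alpha-fetoprotein (Afp), the fetal counterpart of albumin, had 9649 reads in Ago2ADH and 8509 in wild type (0.29, 0.25 to 0.33). Afp was named after its value was seen, and like Trf it is among the 5 above 0. Among the 11 below 0, Fgb had 2771 reads in Ago2ADH and 3912 in wild type (-0.39, -0.46 to -0.32). The labelled tissue thus carried its defining mRNAs in both libraries.

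The other cell types left little mRNA. Myeloid fragments numbered 1132 in Ago2ADH and 1382 in wild type, with a median of -0.07 (-0.48 to -0.00238) over 11 genes. That median was 0.01 when scaled to RefSeq reads, -0.34 with reads of 20 to 24 nt and -0.18 over the 8 genes with 100 or more reads. The leading myeloid genes were S100a9, a calcium-binding protein of neutrophils (210 reads in Ago2ADH, 306 in wild type), and Ltf, the lactoferrin of their granules (144 in Ago2ADH, 189 in wild type). Endothelial and stellate fragments numbered 761 in Ago2ADH and 824 in wild type, with a median of -0.14 (-0.93 to 0.40) over 10 genes that is 0.23 over the 3 genes with 100 or more reads. Reln, a secreted matrix protein that liver stellate cells make, led this list with 351 reads in Ago2ADH and 365 in wild type, before Stab2, a scavenger receptor of liver sinusoids, with 128 in Ago2ADH and 118 in wild type. Of 6 megakaryocyte genes only Vwf reached 50 reads, with 51 in Ago2ADH and 72 in wild type, and the platelet chemokine gene Ppbp had 17 in Ago2ADH and 24 in wild type. No gene of these lists met the size rule, which only 0.901% of 3329 RefSeq names met.

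Fragments of 15 mRNAs known from the literature as miR-22 targets were counted in the same way, a list of human and mouse work combined. They came to 1410 reads in Ago2ADH and 1421 in wild type, and 14 genes had 50 or more. Their median log2 ratio was 0.07 (-0.15 to 0.49). Of the 14, 2 lay above 0 beyond counting error, none below, and 12 had an interval that contained 0, where 7.88% of all RefSeq names lay above 0 and 7.17% below. None of the 11 with 100 or more reads met the size rule, which only 0.901% of 3329 RefSeq names met.

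Ppara, a nuclear receptor of fatty acid use, had the most reads of the targets, 429 in Ago2ADH and 448 in wild type (0.05, -0.15 to 0.24). The pair above 0 was Tet2, which oxidises methylcytosine in DNA and limits the growth of blood-forming stem cells, with 74 reads in Ago2ADH and 47 in wild type (0.76, 0.22 to 1.32), and Ppargc1a, a coactivator of mitochondrial genes, with 80 in Ago2ADH and 61 in wild type (0.50, 0.00158 to 1.01). Tet2 and Ppargc1a were named after their values were seen. Hdac4, a histone deacetylase, had 80 reads in Ago2ADH and 87 in wild type, and Cdk6, a cell cycle kinase, 122 in Ago2ADH and 146 in wild type. These are short pieces of mRNA in a small RNA library, so the counts do not measure repression by miR-22.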

How the data were processed

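Small RNA of fetal liver from 1 Ago2ADH and 1 wild type library was compared, with genotypes taken from the labels. Per the labels' protocols, total RNA was size-selected on a gel, ligated to adapters, reverse transcribed, amplified and read on an Illumina GA2. The authors deposited raw read counts per distinct sequence, without normalization. Per the file headers, each sequence has a number of genome matches, 1 class and 1 name. The aligner, build, annotation versions and trimming were not given in the sources used here. In all 2344366 sequences of 15 to 34 nt are listed, 12128 of them of the miRNA class under 597 names, with 0 columns of other samples.

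From these counts, miRNA reads were placed by exact match on 1174 hairpins of GENCODE release M21 (GRCm38), which placed 99.86% in Ago2ADH and 99.83% in wild type. The arm was set by the middle of the read. Ratios were Ago2ADH over wild type, scaled to the miRNA total, with exact conditional binomial intervals. Shares had Clopper-Pearson intervals, their differences Newcombe intervals, and the odds of 214 minor arms with 200 or more reads Woolf intervals with 0.5 added. In either library 3 reads equal 1.07 RPM. The substitution background took arms with a main read of 2000 or more reads. Genes needed 50 reads, and the interval of a list median runs between gene values.

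With 1 library per genotype no count test across samples was possible. The members, gene lists and naming rule were chosen with earlier results of these data known. The rule names both arms, arms with the same seed, the 5 arms nearest to the 3p and the 3 nearest to the 5p arm, forms of 1% or more of an arm, and the 2 genes with most reads of each list, of which 1 target gene is not reported here. Other forms, the A1C change, Tfrc, Afp and the other genes were added after their values were seen. Listed names with no read in the table under their symbols include Epb42, Sptb, Ahsp and Eraf among the erythroid and Lyz and Elane among the myeloid ones; some are newer or older symbols of other listed names. The size rule was also tried on simulated reads that held counting error only, so spread between animals or libraries was not part of that trial. As alternatives, ratios were scaled by TMM (edgeR 4.0.16), by the median of ratios, by all reads, and by totals without miR-451 or without the most abundant arms. Others took read lengths of 20 to 24 nt, reads with 1 genome match, distinct sequences, and extended or substituted reads included. Tools were Python 3.11.15, pandas 2.3.3, SciPy 1.17.1, Matplotlib 3.10.9 and RNAfold 2.7.2.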

Additional observations from a re-analysis of the deposited data

How the results depend on the processing

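Of 52 alternative values, 33 lay within the interval of the reported value and 19 lay outside it. For list medians that interval runs over genes. None of the values recomputed here was a call under the size rule, so none could be reversed. The calls of other arms, miR-451-5p among them, were not recomputed. The interval of miR-22-3p lay above 0 at the reported scale (0.0113 to 0.0384) and below 0 by median of ratios (-0.139 to -0.112). For miR-22-3p, 7 of 11 settings put the log2 ratio below 0. It was 0.136 scaled to all reads, -0.126 by median of ratios, -0.117 by TMM and -0.151 without miR-451. It was -0.176 without the 13 arms that are among the 10 most abundant of either library, and -0.0427 with reads of 20 to 24 nt. Over distinct sequences it was -0.293 (-1.08 to 0.479), an interval that contains 0. With substituted reads, an alternative chosen after the data were seen, it was -0.00172 (-0.0147 to 0.0113), an interval that also contains 0. For miR-22-5p it was -0.255 by median of ratios, -0.281 without miR-451 and -0.306 without the most abundant arms. Over distinct sequences the differences in percentage points were 1.89 for the 5p share, 7.63 for the main 5′ end and 0 for the main 3′ end, each with an interval wider than 30 points. Scaled to RefSeq reads, marker medians were 0.0247 for hepatocyte, 0.0130 for myeloid and -0.303 for megakaryocyte genes, and with reads of 20 to 24 nt they were -0.213 for hepatocyte and -1.14 for the 1 megakaryocyte gene. For the scalings the shift follows from the total used; for the others the cause was not tested. No paired analysis was possible because each genotype has 1 library and the labels carry no replicate numbers. Differences between animals, litters or library preparations cannot be told apart from genotype.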
